A study of Mus musculus with 12 samples.

Results

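The subject is how a diet free of branched-chain amino acids (BCAA: leucine, isoleucine and valine) altered the response of the mouse heart to pressure overload, gene by gene. Poly(A) RNA came from hearts (the labels name no region) of male C57Bl/6J mice aged 12 weeks in 4 groups of 3 libraries: control diet with sham surgery, control diet with transverse aortic constriction (TAC), BCAA-free diet with sham surgery, and BCAA-free diet with TAC. Both diets began 4 days before surgery and were kept up until the hearts were taken 1 week after it; the control diet held BCAA at the level of standard chow, and all mice were of the same strain with no genetic change named in the labels. Nothing in the labels ties the 3 replicates of a group to separate animals, so every p-value here reflects variation between these libraries alone, and that variation may be technical. For each gene, 2 TAC responses were formed, TAC minus sham on the control diet and TAC minus sham on the BCAA-free diet, and the second minus the first is called the difference here. All 12 libraries enter it, and it covers the 17493 genes listed for both diets with a mean of at least 10 normalized reads, of 18604 genes in any of the deposited tables. Responses and differences are on the log2(normalized reads + 1) scale, where 1 is a doubling, and low genes change by more than this scale shows. The reads printed for each library were scaled jointly over the 12 libraries, because the deposited tables were each normalized separately; responses and the difference come from the deposited values.

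In TAC a band narrows the aorta, and the left ventricle must pump against a higher pressure. As background, the heart answers within days: cardiomyocytes enlarge and switch on fetal genes such as natriuretic peptides and skeletal actin, fibroblasts become activated and lay down collagen, non-muscle cells divide, and macrophages increase, while genes of fatty acid oxidation and mitochondrial metabolism go down. BCAA are essential amino acids that signal through mTORC1, and the heart breaks them down in mitochondria by a transaminase and a branched-chain keto acid dehydrogenase. The comparison asks which parts of the overload response are weaker, kept or stronger when dietary BCAA are missing.

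The libraries held 74206246 to 110452636 reads. Control TAC 3 lay farthest from its group mean: its genes deviated from it with a log2 SD of 0.283, and those of the remaining 11 libraries with 0.141 to 0.214. The structured RNAs Rn7sk, Rmrp and Rpph1, which a poly(A) selection should largely remove, together had 115.5 CPM in control sham 2. The BCAA-free TAC libraries 3 and 1 followed at 76.1 and 63.6 CPM, control TAC 3 had 19.3 CPM, and the remaining 8 had 2.06 to 7.79 CPM. Mitochondrially coded genes took 17.9% to 19.9% of reads in the control TAC libraries and 21.8% to 27.1% in all others. The 12 cardiomyocyte markers, such as Myh6 and Tnnt2, summed to 5531320 to 6812530 normalized reads in control TAC and to 7429830 or more in every library of the other groups, so heart muscle was present throughout. In whole tissue, fewer cells of a type and less RNA per cell cannot be told apart. The mitochondrial share and the cardiomyocyte marker sum move with the control TAC group, while the distance of control TAC 3 separates libraries within a group. Structured RNA does both. It varied within groups, and every BCAA-free TAC library (7.79 to 76.1 CPM) lay above every BCAA-free sham library (3.02 to 3.89 CPM). Control sham and control TAC overlapped in it. The part of these features in the results was not tested.

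Control-diet TAC changed far more genes than TAC without BCAA. On the control diet 2324 genes rose (13.3% of those tested) and 2112 fell (12.1%), and on the BCAA-free diet 174 rose (0.995%) and 135 fell (0.772%), each at a Benjamini-Hochberg adjusted p under 0.05 from limma. Together these are 25.4% and 1.77% of the genes tested. The 2324 rising genes had a median response of 0.71 on the control diet and 0.23 without BCAA, and 89.6% of them were above 0 on the other diet as well. The 2112 falling genes had medians of -0.49 and -0.19, and 88.4% kept the sign. Read from the other side, the 174 genes that rose on the BCAA-free diet had medians of 0.77 there and 1.16 on the control diet, and their control response was the larger in 130. The 135 that fell on the BCAA-free diet had medians of -0.48 there and -0.61 on the control diet. The 2 responses share no library.

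The difference itself was called for 118 genes (0.675%): 88 lower without BCAA (0.503%) and 30 higher (0.171%), with a median difference over all genes tested of 0.02. All 88 lower genes were weaker rises, which means that they rose on the control diet and that their response on the BCAA-free diet was smaller. Of the 30 higher genes, 29 were weaker falls and 1, Hmcn2, responded in opposite directions. No gene was called stronger without BCAA by limma, of 2564 genes with an unadjusted p of the difference under 0.05; DESeq2 on whole reads recovered from the deposited values called 9 and edgeR 0. Other limma fits did call such genes: 34 with array weights, 21 without control TAC 3, 3 at an adjusted p under 0.1, 1 without BCAA-free sham 1 and 1 when scaled without mitochondrially coded genes. Kept responses, called in the same direction on both diets with a 95% interval of the difference within 0.6 of 0, numbered 38 rises and 102 falls. A further 4201 genes had a called response and a difference that was not called and not bounded that closely, and 13034 had no called response. When the values were rescaled to library totals without the mitochondrially coded genes, 22 genes were called higher and 265 lower, so the share of higher calls was 7.67% in place of 25.4%; the median difference of all genes was then -0.10.

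The 88 weaker rises had a median control response of 1.26 and a median BCAA-free response of 0.27. The BCAA-free response was below 0 in 15 of them, between 0% and 25% of the control response in 38, and between 25% and 50% in 35. The largest remaining share was 47.7%, in Mfap5, a microfibril protein. The genes were chosen by a called difference in these same values, so low shares follow in part from the choice. Of the 88, 18 were themselves called as rises on the BCAA-free diet. The 29 weaker falls had medians of -1.05 and -0.05, with 11 above 0 on the BCAA-free diet and 2 called there, Bckdha and the predicted gene A530016L24Rik, whose BCAA-free response was 50.8% of the control one. In all 88 weaker rises every control TAC library lay above each of the other 9 libraries, which also held for 12.9% of all genes tested, and in 27 of the 29 weaker falls it lay below them (9.69% of all genes); the same libraries set the calls, so nothing further is read from this. At the threshold, Lrp8 (difference -1.31) and Mxd3 (-2.32) were the last genes called, and Gfra1 (0.84) and Ngef (-1.57) the first that were not.

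**Figure D1:**
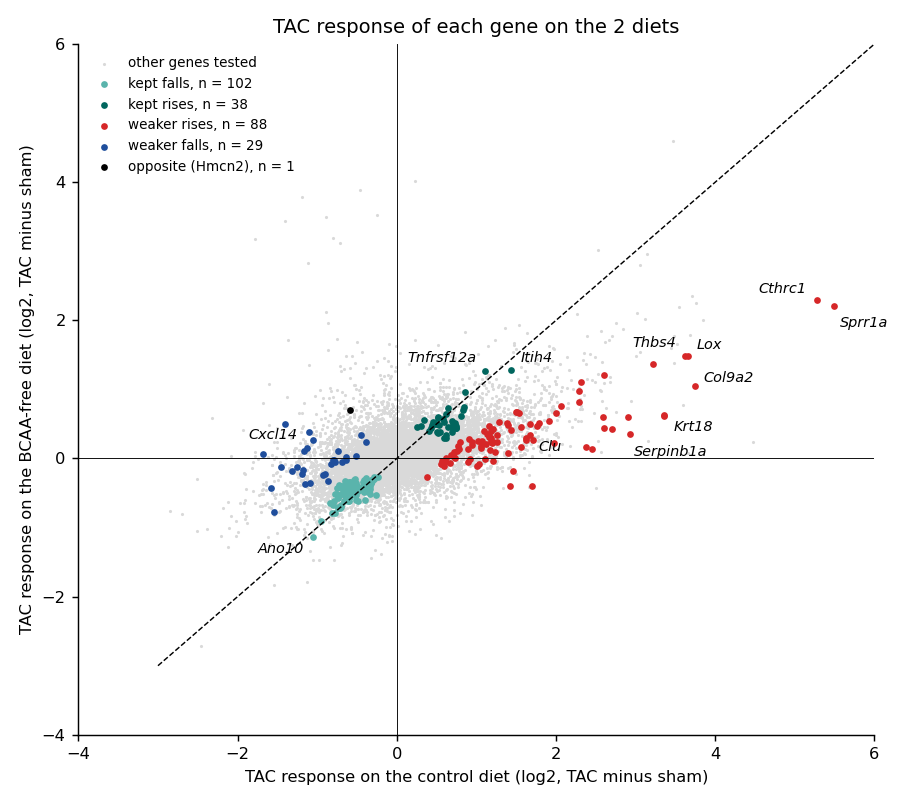
Each point is 1 of 17493 genes, with its TAC response on the control diet (x axis, log2) and on the BCAA-free diet (y axis, log2), and the dashed line marks equal responses. Weaker rises (red, 88) lie right of 0 and below the line, weaker falls (blue, 29) lie left of 0 and above it, and kept responses (green, 38 rises and 102 falls) lie along it.

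These counts depended on single libraries. Without control TAC 3, 1755 genes were called (10% of those tested; 890 higher, 5.09%, and 865 lower, 4.94%), and all 118 were among them. Without BCAA-free sham 2 the count was 16, without BCAA-free TAC 2 or TAC 3 it was 17 each, without control sham 2 it was 23, without BCAA-free sham 1 it was 24, and without control sham 3 it was 29. It was 47 without control TAC 2, 60 without control sham 1, 69 without BCAA-free sham 3, 80 without control TAC 1 and 163 without BCAA-free TAC 1. Of the 118 genes, 14 were called in each of the 12 fits and 104 were lost in at least 1. The difference kept its sign for all 118 in all 12 fits. Another fit, chosen after seeing the data, left out the 4 libraries with the most structured RNA together. These were control sham 2, control TAC 3 and BCAA-free TAC 1 and 3. That left BCAA-free TAC 2 as the only library of its group, with no spread of its own, so counts from that fit are not given. The count of BCAA-free responses ran from 38 without BCAA-free TAC 1 to 1011 without control TAC 3, around 309. It was 193 without BCAA-free TAC 2, and 53 to 81 without BCAA-free TAC 3 or any of the BCAA-free sham libraries. The 14 include the weaker rises Serpinb1a, Krt18, Lox, Thbs4, Star, Clu, Uchl1, Stmn1, Tspo and Efhd2, the weaker fall Cxcl14, the lincRNA 2310020H05Rik and the mitochondrial transfer RNA mt-Tf. edgeR and DESeq2, run on the whole reads recovered from the deposited values, called all 118. These 14 genes were singled out after their values were seen.

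**Figure D2:**
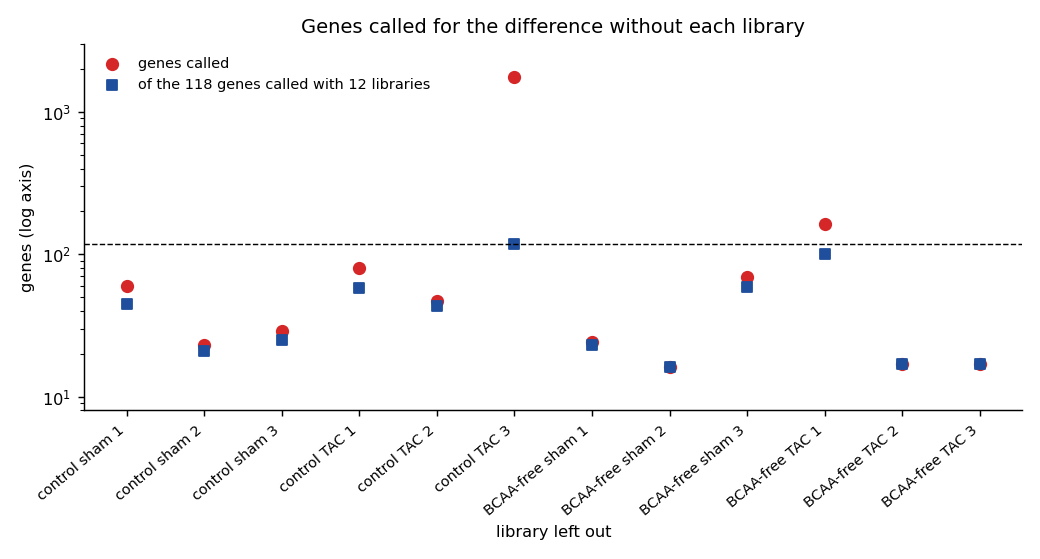
For each library left out (x axis), the number of genes called for the difference (red, log axis) and how many of the 118 genes called with 12 libraries were among them (blue). The counts run from 16 without BCAA-free sham 2 to 1755 without control TAC 3, and the dashed line marks 118.

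Among the genes whose call did not depend on any 1 library, the extracellular matrix was represented by Lox and Thbs4. Lox codes for lysyl oxidase, which crosslinks collagen and elastin. Its normalized reads were 652, 557 and 513 in control sham, 8135, 8704 and 5395 in control TAC, 502, 575 and 431 in BCAA-free sham, and 1740.1, 984 and 1593 in BCAA-free TAC. TAC was above sham on both diets without overlap, and the highest BCAA-free TAC library lay below the lowest control TAC library. The response was 3.66 on the control diet and 1.48 without BCAA, a difference of -2.18 ± 0.299 (SE, adjusted p = 0.01). Thbs4 (GRCm38 chromosome 13, 92751590 to 92794818, minus strand), a thrombospondin of the matrix, stood at 684, 748 and 684 in control sham, 9545, 10057 and 6939 in control TAC, 485, 661 and 553 in BCAA-free sham, and 2044, 1043 and 1827 in BCAA-free TAC. Its response was 3.62 against 1.48, with a difference of -2.14 ± 0.300 (adjusted p = 0.0109). Both genes therefore rose on each diet, and to a lower level without BCAA.

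Serpinb1a and Krt18 rose on the control diet, and neither BCAA-free response was called (adjusted p = 0.452 and 0.309). Serpinb1a (chromosome 13, 32842092 to 32851185), an intracellular inhibitor of neutrophil proteases, had 327, 249.97 and 257 normalized reads in control sham, 2326, 2720.5 and 1509 in control TAC, 247, 205 and 233 in BCAA-free sham, and 284, 242 and 362 in BCAA-free TAC. The BCAA-free sham and TAC libraries overlapped, and the response was 2.93 against 0.35. Its difference of -2.58 ± 0.284 had the smallest adjusted p of all genes (0.00587). Krt18 (chromosome 15, 102028180 to 102032027), a keratin of simple epithelia, had 49.5, 51.3 and 50.4 in control sham, 642, 540.4 and 428 in control TAC, 53.7, 38.1 and 45.4 in BCAA-free sham, and 116, 60.2 and 49.2 in BCAA-free TAC. Its response was 3.36 against 0.61 (difference -2.75 ± 0.384, adjusted p = 0.00919), and BCAA-free TAC 1 was the highest of its group.

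A pair of genes of mitochondrial cholesterol import also belonged to this set. Star, the steroidogenic acute regulatory protein that carries cholesterol into mitochondria, had 252, 291 and 290.3 normalized reads in control sham and 1408, 1591 and 1126 in control TAC. On the BCAA-free diet it had 288, 247 and 281 in sham and 470.2, 421 and 566 in TAC. TAC was above sham on both diets, with responses of 2.28 and 0.82 (difference -1.46 ± 0.202, adjusted p = 0.00919). Tspo, a cholesterol-binding protein of the outer mitochondrial membrane, had 2859, 2458 and 2596 in control sham, 6429.9, 5854 and 6181 in control TAC, 2623, 2576 and 2596 in BCAA-free sham, and 3472, 2923 and 2873 in BCAA-free TAC. Its sham libraries overlapped between the diets, and its response was 1.21 against 0.24 (difference -0.98 ± 0.121, adjusted p = 0.00919).

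Clu had the most reads of the weaker rises, without regard to gene length. Clu (chromosome 14, 65968483 to 65981547), which codes for the secreted chaperone clusterin, had 41973, 44458 and 43526 normalized reads in control sham, 154846, 154960.0 and 111294 in control TAC, 59329, 46542 and 47244 in BCAA-free sham, and 63944, 60215 and 70247 in BCAA-free TAC. The BCAA-free sham and TAC libraries lay next to each other without overlap, and the response was 1.67 against 0.35 (difference -1.32 ± 0.18, adjusted p = 0.00919). Uchl1, a deubiquitinase of neurons that is switched on in stressed cardiomyocytes, had 707, 653 and 657 in control sham, 2812, 2336 and 1929 in control TAC, 673, 669.6 and 595 in BCAA-free sham, and 991, 859 and 935 in BCAA-free TAC. It rose on both diets, by 1.78 and 0.52 (difference -1.27 ± 0.167, adjusted p = 0.00919).

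Stmn1, stathmin, destabilizes microtubules and is abundant in dividing cells. It had 997, 735 and 882 normalized reads in control sham, 2245, 1927 and 1893 in control TAC, 819.7, 742 and 620.0 in BCAA-free sham, and 746, 653 and 724 in BCAA-free TAC. The 2 BCAA-free groups overlapped, with a response of -0.04 against 1.21 on the control diet (difference -1.25 ± 0.182, adjusted p = 0.0109). Efhd2, a calcium-binding protein of the actin cytoskeleton, had 2024, 2326 and 2256 normalized reads in control sham, 4962, 5038 and 4822 in control TAC, 2339.6, 2206 and 2083 in BCAA-free sham, and 3054, 2579 and 2779 in BCAA-free TAC. BCAA-free TAC lay above BCAA-free sham in every library, although the BCAA-free response of 0.34 was not called (adjusted p = 0.0529). The control response was 1.16, and the difference -0.82 ± 0.114 (adjusted p = 0.00919).

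**Figure D3:**
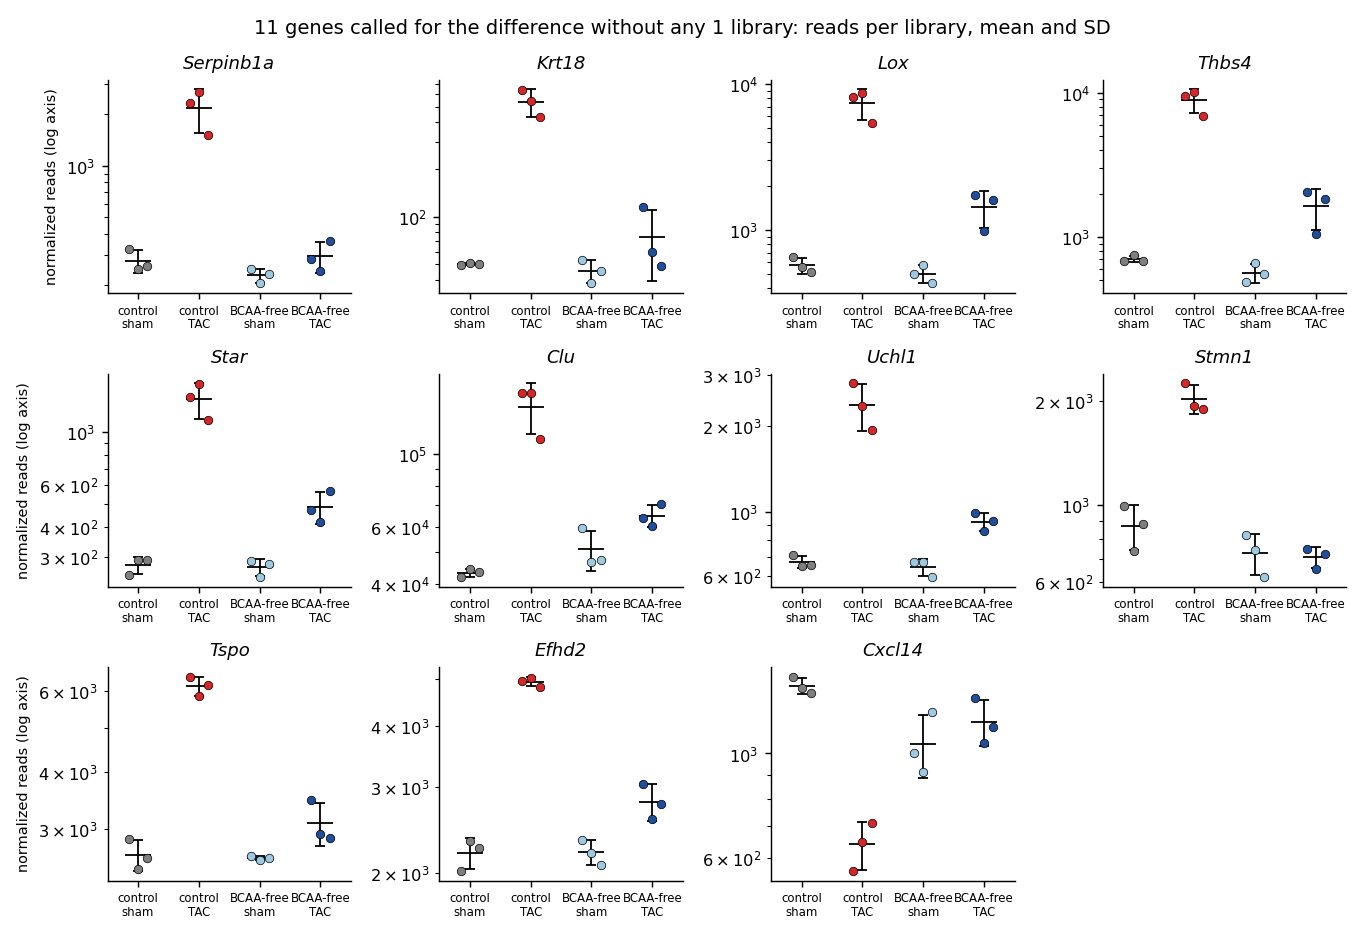
Normalized reads (log axis) of 11 genes in the 12 libraries, each point 1 library, with the mean and SD of each group (n = 3). In 10 genes the control TAC libraries lie above all others, and in Cxcl14 they lie below all others.

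The matrix lists had their calls in 1 direction. Gene lists and the genes named were chosen with earlier results of these data known, and no list was tested as a set. Of 36 collagen chains measured, 5 were called lower (0.503% of all genes tested) and none higher (0.171%); the median response of the list was 1.22 on the control diet and 0.56 without BCAA, against -0.02 and 0.01 over all genes tested. The 5 were Col8a1, Col8a2, Col9a2, Col12a1 and Col16a1. Col8a2, a short-chain collagen, went from 3.36 to 0.63, and Col9a2, a chain better known from cartilage, from 3.74 to 1.05. The calls of Col8a2, Col9a2 and Col16a1 held in 2, 3 and 7 of the 12 fits with a library left out. Col1a1, the main fibrillar collagen chain, was not called: its responses were 2.45 and 1.14, the difference -1.31 (95% interval -2.28 to -0.34, adjusted p = 0.191). Without control TAC 3, 19 collagen chains were called, all lower (4.94% of all genes in that fit), and without control sham 2 none was. In Col8a2 control TAC 3 had 441 normalized reads, against 1363 and 1523 in the other two libraries of its group, and the other 9 libraries lay at 59.8 to 159.

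Of 24 matricellular and activated fibroblast genes, 3 were called lower (0.503% of all genes tested), Cthrc1, Thbs4 and Wisp1. The list's medians were 1.88 and 0.73. Cthrc1 (chromosome 15, 39076932 to 39087121), a secreted protein of activated fibroblasts, had 42.7, 41.7 and 39.98 normalized reads in control sham, 1915, 2276 and 1042 in control TAC, 30.4, 28.4 and 16.4 in BCAA-free sham, and 163, 77.2 and 148 in BCAA-free TAC. It rose on both diets, by 5.28 and 2.29, the second largest control response among the called genes after Sprr1a; the difference of -2.99 ± 0.456 (adjusted p = 0.0147) was called in 11 of the 12 fits with a library left out. Wisp1 (also Ccn4), a matricellular protein induced by WNT1, had responses of 2.91 and 0.61 (difference -2.30 ± 0.371, adjusted p = 0.0204). Postn and Tnc, periostin and tenascin C of the healing matrix, had large differences that were not called: -1.86 (adjusted p = 0.0647) and -1.83 (adjusted p = 0.0748). Without control TAC 3, 16 genes of the list were called, all lower, against the same 4.94%, and without BCAA-free sham 2, 1 was.

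Of 26 genes of collagen processing and crosslinking, 3 were called lower (0.503% of all genes tested). They were Lox, Pcolce, the enhancer of procollagen C-proteinase (1.28 against 0.53), and Plod2, a lysyl hydroxylase (0.57 against -0.04). Of 16 elastic fibre genes, 2 were called lower: Mfap5 (2.32 against 1.11) and Efemp2, fibulin-4, which recruits lysyl oxidase to elastin (1.21 against 0.42). Of 32 matrix proteases and inhibitors, 1 was called, the metalloproteinase Mmp23 (1.38 against 0.52); the inhibitor Timp1 rose on both diets, by 3.55 and 2.19, and its difference was not called (-1.36, adjusted p = 0.0972). Limma called 0 of 18 matrix proteoglycans, 0 of 30 TGF-beta pathway genes and 0 of 24 integrin subunits. At an unadjusted p under 0.05 the counts were 9, 11 and 5, with edgeR 1, 0 and 0, and with DESeq2 5, 3 and 2. Over all genes these 3 ways of calling gave 14.7%, 0.806% and 5.12%. In the fit without control TAC 3, which called 10% of all genes, the counts were 8, 6 and 5 in these lists, 17 in collagen processing and crosslinking, 10 in elastic fibre genes and 10 in matrix proteases and inhibitors. The calls of Pcolce, Mfap5, Efemp2 and Mmp23 held in 3, 5, 6 and 2 of the 12 fits with a library left out. The sum of 11 fibroblast markers, such as Pdgfra and Dcn, was 154111 to 180009 normalized reads in control sham, 167643 to 181382 in control TAC, 149947 to 155732 in BCAA-free sham and 160328 to 167204 in BCAA-free TAC; its part in these results was not tested.

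Among 19 markers of hypertrophy, 3 were called lower without BCAA (0.503% of all genes tested), Sprr1a, Uchl1 and Fhl1, and none higher (0.171%). The medians were 1.02 and 0.52. Sprr1a (chromosome 3, 92483952 to 92485895), a small proline-rich protein induced in stressed cardiomyocytes, had 16.5, 25.6 and 14.4 normalized reads in control sham, 1055, 798 and 781 in control TAC, 11.1, 12.4 and 5.04 in BCAA-free sham, and 56.3, 22.7 and 73.8 in BCAA-free TAC. TAC was above sham on both diets, with responses of 5.49 and 2.21 and the largest difference in size among the called genes, -3.28 ± 0.57 (adjusted p = 0.0242); the call held in 6 of the 12 fits with a library left out. Fhl1, a LIM protein of the stretch response, went from 1.401 to 0.48. Of 32 cytoskeleton genes 4 were called lower: Krt18, Stmn1 and the beta tubulins Tubb2b (1.55 against 0.17) and Tubb5 (0.72 against 0.10). In the fit without control TAC 3, which called 10% of all genes, 5 of 19 hypertrophy markers and 12 of 32 cytoskeleton genes were called.

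The difference was not called for Nppa, Nppb, Ankrd1 or Acta1, which are widely used markers of hypertrophy. Nppa, which codes for atrial natriuretic peptide, had 24476, 36465 and 13719 normalized reads in control sham, 202364, 187759 and 121401 in control TAC, 24796, 18953 and 16022 in BCAA-free sham, and 93657, 55134 and 72830.4 in BCAA-free TAC. It rose on both diets, by 2.84 and 1.88, with a difference of -0.97 and a 95% interval from -2.03 to 0.10 (adjusted p = 0.389). Nppb, brain natriuretic peptide, rose by 1.65 and 1.39 (difference -0.26, interval -0.96 to 0.44), and Ankrd1, a titin-associated stretch protein, by 1.61 and 1.27 (difference -0.35, interval -0.996 to 0.30). Acta1, skeletal actin, had 20296, 23883 and 22552 in control sham, 66059.7, 196355 and 167004 in control TAC, 8797, 7999 and 6190.2 in BCAA-free sham, and 86022, 40887 and 66820.4 in BCAA-free TAC. Its TAC libraries lay above sham on both diets, by 2.53 and 3.02, and the difference of 0.49 had an interval from -0.71 to 1.69. All 4 intervals include 0, and those of Nppa and Acta1 also include a difference of 1 in size, so for these genes the data separate neither a kept nor a changed response.

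**Figure D4:**
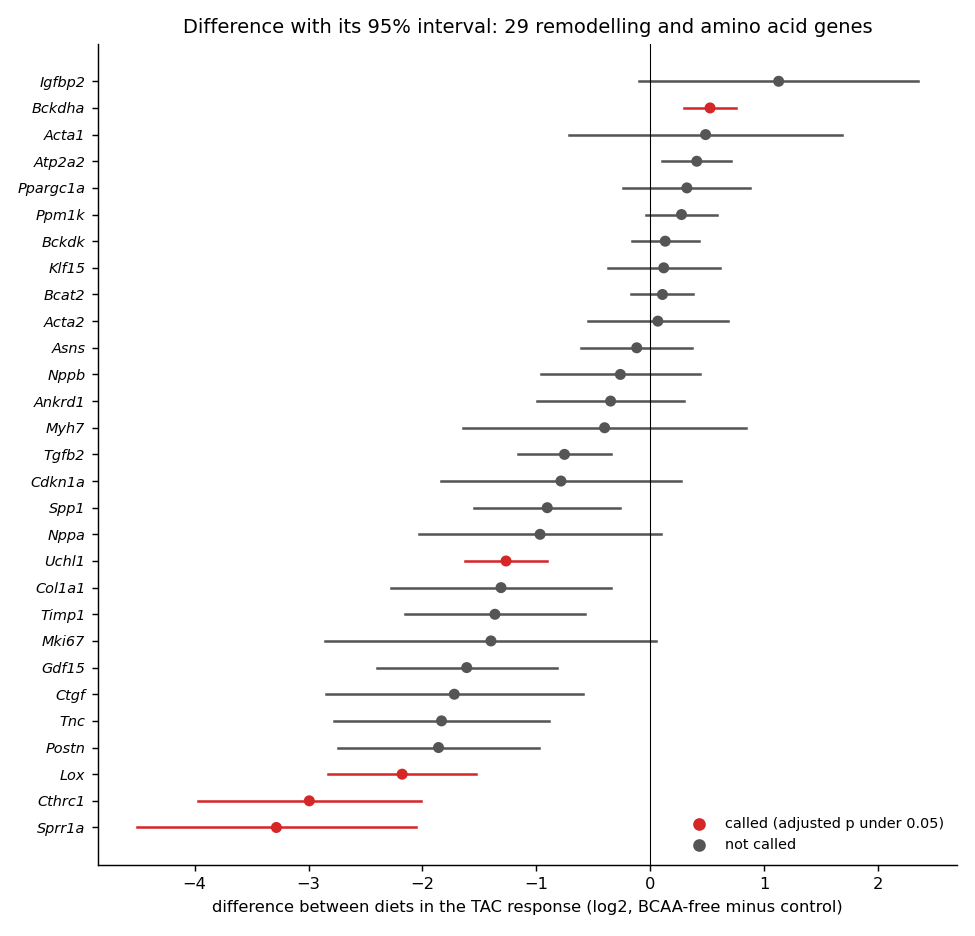
Difference between diets in the TAC response (x axis, log2, BCAA-free minus control) with its 95% interval for 29 genes of remodelling and amino acid metabolism. The 5 called genes (red) are Sprr1a at -3.28, Cthrc1 at -2.99, Lox at -2.18, Uchl1 at -1.27 and Bckdha at 0.53; among the grey genes, Acta1, Myh7, Nppb, Ankrd1 and Nppa have intervals that include 0.

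Genes of cell division were among the weaker rises. Of 40 DNA replication genes, 5 were called lower (0.503% of all genes tested) and none higher (0.171%). They were Mcm3, Mcm5, Mcm6 and Mcm7, subunits of the replicative helicase, and Lig1, the ligase that joins Okazaki fragments. The list's medians were 0.39 on the control diet and -0.05 without BCAA, and 36 of 40 differences were below 0, against 47.5% of all genes tested. Mcm5 had 448, 459 and 549 normalized reads in control sham, 1117, 1094 and 939.6 in control TAC, 369, 375 and 267 in BCAA-free sham, and 331, 332 and 332 in BCAA-free TAC. The BCAA-free groups overlapped, and the difference was -1.12 ± 0.194 (adjusted p = 0.0242). Mcm7 had 1036, 1084 and 1086 in control sham, 1516, 1430.3 and 1281 in control TAC, 1250.4, 1202 and 1161 in BCAA-free sham, and 966, 1081 and 953 in BCAA-free TAC. In this gene BCAA-free sham lay above control sham and BCAA-free TAC lay below BCAA-free sham. Neither the diet effect in sham (0.17, adjusted p = 0.386) nor the BCAA-free response (-0.27, adjusted p = 0.129) was called. For the difference, the calls of Mcm5 and Mcm7 held in 4 and 2 of the 12 fits with a library left out.

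All 42 mitosis genes had a difference below 0, against 47.5% of all genes tested, with medians of 1.55 and 0.31. The 2 called lower (0.503% of all genes tested) were Smc2 (0.92 against -0.01) and Smc4 (0.59 against -0.11), the paired core subunits of condensin. The calls of Smc2 and Smc4 held in 3 and 6 of the 12 fits with a library left out. Mki67, the proliferation antigen, varied widely within the control-diet groups, with 929.7, 331 and 944 normalized reads in control sham, 3292, 3379 and 1253 in control TAC, 196, 245 and 139 in BCAA-free sham, and 273, 215 and 294 in BCAA-free TAC. Its difference of -1.398 was not called (adjusted p = 0.36), and the BCAA-free libraries lay below every control-diet library. In sham hearts 16 of the 42 mitosis genes were called lower on the BCAA-free diet, against 0.766% of all genes, and in TAC hearts 40 (13.9% of all genes). Without control TAC 3, 24 mitosis genes and 12 DNA replication genes were called for the difference, all lower (4.94% of all genes in that fit), and without control sham 2 or control sham 1, respectively, none was. The cell cycle genes E2f1, Mastl, Gtse1, Diaph3 and Ncapg2 were also weaker rises and were chosen here after their values were seen.

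E2F transcription factors bind upstream of many replication genes, so the promoters of the called members were searched for 4 forms of the E2F element, TTTCGCGC, TTTGGCGC, TTTCCCGC and TTTGCCGC, on either strand, with overlapping matches counted as 1. The windows come from RefSeq (build GRCm38.p6) and span 250 bases before to 50 after a start. A match was present in 10 of 84 windows (11.9%) of the 65 weaker rises found in that table, of 88, in 3.62% of 15228 windows of genes tested, in 2.26% of all 32851 windows, in 35.1% of 37 windows of DNA replication genes, and in 0.68% of 147 windows of genes with kept responses. The 10 genes were Efhd2, Lig1, Mcm3, Mcm5, Mcm6, Mcm7, Ncapg2, Pak1, Phf19 and Serinc2, so all 5 called replication genes were among them. For AP-1, TGACTCA on either strand, the shares were 7.14% of the weaker rises' windows, 3.97% of those of genes tested and 5.20% of all windows; for TEAD, CATTCC on either strand, they were 14.3%, 12.8% and 14.7%, and for the CArG box of serum response factor, 1.19%, 1.32% and 1.63%. A match is a description of letters and not a binding site. The stretches before the start that hold a match are shown for the 3 helicase genes that have one there, 5′ to 3′ on the gene's strand, with the match in capitals.
Mcm5, chr8:75109264-75109383, plus strand: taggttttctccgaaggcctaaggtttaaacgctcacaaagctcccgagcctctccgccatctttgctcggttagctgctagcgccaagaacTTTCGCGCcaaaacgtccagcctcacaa
Mcm6, chr1:128359725-128359844, minus strand: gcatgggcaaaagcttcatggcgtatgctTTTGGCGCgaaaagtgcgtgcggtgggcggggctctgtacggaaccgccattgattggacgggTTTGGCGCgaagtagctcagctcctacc
Mcm7, chr5:138172014-138172133, minus strand: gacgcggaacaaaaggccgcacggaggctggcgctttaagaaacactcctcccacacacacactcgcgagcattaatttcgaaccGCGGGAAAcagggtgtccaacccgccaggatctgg
Mcm6 holds 2 matches, beginning 110 and 47 bases before the RefSeq start of its window. Mcm5 and Mcm7 hold 1 each, beginning 153 and 165 bases before theirs. The Mcm7 stretch lies inside the GENCODE span of that gene (138164583 to 138172422), so the start used for it is an internal one. Beside these sequences, Mcm6 had a response of 0.90 on the control diet and 0.14 without BCAA (difference -0.76 ± 0.143, adjusted p = 0.032).

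Immune genes were represented by single members. Of 22 macrophage genes 1 was called lower, Lgals3, galectin-3 of activated macrophages (1.62 against 0.30, difference -1.32 ± 0.229, adjusted p = 0.0242). Its call held in 5 of the 12 fits with a library left out. It had 1073, 1068 and 891 normalized reads in control TAC and 234 to 394 in the other 9 libraries. Trem2, a receptor of lipid-handling macrophages, had responses of 2.15 and 0.74 and was not called (adjusted p = 0.0597). The summed level of 11 macrophage markers, such as Cd68 and C1qa, was 33304 to 35744 normalized reads in control TAC and 18786 to 27317 in the other groups, with BCAA-free TAC at 20789 to 27317 and BCAA-free sham at 19060 to 21459. Lgals3 and this sum move together across the groups, and the part of macrophage number in the result was not tested. Clu was the single called gene of 20 complement genes, and it was lower. Of 40 chemokine, cytokine and receptor genes 1 was called, Cxcl14, which was higher. Over all genes tested 0.503% were called lower and 0.171% higher. In the fit of all libraries limma called 0 of 36 interferon and antigen presentation genes for the difference. At an unadjusted p under 0.05 the count was 4, with edgeR 0 and with DESeq2 1, against 14.7%, 0.806% and 5.12% of all genes. Leaving out control TAC 3 gave calls for 5 macrophage, 4 complement, 5 chemokine and 0 interferon genes, against 10% of all genes in that fit. In the interferon list the diet effect was of similar size in both settings: the median was -0.65 in sham and -0.78 in TAC hearts, with 6 and 30 genes called lower (0.766% and 13.9% of all genes).

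Genes of oxidative stress and steroid response followed. Of 26 oxidative stress genes 2 were called lower (0.503% of all genes tested): Gpx3, the secreted glutathione peroxidase (1.26 against 0.24), and Mt2, a metallothionein (1.91 against 0.54). Mt2 and Fkbp5, a co-chaperone of the glucocorticoid receptor (1.17 against 0.12), were the 2 called of 15 glucocorticoid-responsive genes. Leaving out control TAC 3 gave 6 calls among the 26 oxidative stress genes and 2 among the 15 glucocorticoid-responsive genes, against 10% of all genes. Fkbp5 had 1958, 2734 and 1629 normalized reads in control sham, 4591, 4159 and 5369 in control TAC, 3179, 2982 and 3039.7 in BCAA-free sham, and 3535, 3014 and 3523 in BCAA-free TAC. Its BCAA-free sham libraries already lay above every control sham library, by a diet effect of 0.57 that was not called (adjusted p = 0.0865). In TAC hearts the diet effect was -0.48 (adjusted p = 0.0335). The calls of Gpx3, Mt2 and Fkbp5 for the difference held in 5, 2 and 2 of the 12 fits with a library left out.

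Other weaker rises outside the naming rule, chosen after their values were seen, included several members of some gene families. The serpins Serpinb9b, Serpinf1 and Serpine2, the lysosomal proteases Ctsk, Ctsz and Lgmn, the secreted WNT antagonists Sfrp2 and Frzb, the annexins Anxa1 and Anxa2, and the matrix calcification inhibitor Mgp were among the 88. Sfrp2 went from 2.60 to 0.44, Frzb from 2.004 to 0.66, Ctsk from 1.67 to 0.50 and Mgp from 1.496 to 0.67. Rtn4, the membrane-shaping reticulon also called Nogo, went from 1.18 to 0.25 and was called in 11 of the 12 fits with a library left out.

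The 5 largest weaker falls under the naming rule were Cxcl14, Clcn1, Lrrc15, Lgi1 and Zfp454. Cxcl14, a chemokine of resting fibroblasts and epithelia, had 1453, 1380.2 and 1344 normalized reads in control sham, 563, 649 and 712 in control TAC, 1003, 914 and 1227 in BCAA-free sham, and 1309.7, 1052 and 1138 in BCAA-free TAC. It fell by 1.13 on the control diet, had a response of 0.15 without BCAA, and its difference of 1.29 ± 0.175 (adjusted p = 0.00919) was called in all 12 fits with a library left out. Clcn1, the chloride channel of skeletal muscle, had responses of -1.45 and -0.12, Lrrc15, a leucine-rich repeat membrane protein, of -1.32 and -0.19, and Lgi1, a secreted protein best known from neurons, of -1.17 and 0.10. Zfp454, a zinc finger gene, had -1.05 and 0.27. These differences ran from 1.14 to 1.33. The calls of Clcn1, Lrrc15 and Lgi1 held in 3, 6 and 2 of the 12 fits with a library left out.

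Bckdha, the E1 alpha subunit of the branched-chain keto acid dehydrogenase that commits BCAA to breakdown, was the called member of 32 genes of BCAA catabolism, against 0.171% of all genes called higher. It had 8752, 9252 and 8694 normalized reads in control sham, 5140.1, 4610.0 and 5090.3 in control TAC, 11096, 9867 and 10712 in BCAA-free sham, and 8322, 8739.7 and 8159 in BCAA-free TAC. It fell on both diets, by 0.86 and by 0.33, and BCAA-free TAC stood near control sham. The difference was 0.53 ± 0.105 (adjusted p = 0.0401), and of the 12 fits with a library left out 1 kept the call. On the control diet 19 of the 32 genes fell, against 12.1% of all genes, and on the BCAA-free diet 1 did, against 0.772%, with medians of -0.39 and -0.10. Pcca, a subunit of propionyl-CoA carboxylase, missed the threshold (-0.64 against -0.21, adjusted p = 0.0571), as did Ppm1k, the phosphatase that activates the dehydrogenase (-0.65 against -0.38, adjusted p = 0.411). Bcat2 and Bckdk, the mitochondrial transaminase and the inhibiting kinase, had differences of 0.11 (interval -0.16 to 0.38) and 0.13 (-0.16 to 0.43). With control TAC 3 left out, 21 of the 32 genes were called, 1 of them lower, against 10% of all genes in that fit.

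Most energy genes had small differences above 0, and none of the 3 main lists had a called member. All 77 nuclear-coded genes of oxidative phosphorylation had a difference above 0, with medians of -0.23 on the control diet and 0.09 without BCAA, and so did 29 of 31 genes of the tricarboxylic acid cycle (-0.31 against 0.02) and 31 of 35 of fatty acid oxidation (-0.42 against -0.12). Over all genes tested 47.5% of differences were below 0. Limma called 0 genes in each of these 3 lists. At an unadjusted p under 0.05 the counts were 23, 13 and 14, against 14.7% of all genes. edgeR called 0 in each, against 0.806% of all genes, and DESeq2 called 4, 8 and 4, against 5.12%. Without control TAC 3 the counts were 63, 25 and 21, all higher, against 5.09% of all genes called higher in that fit. Scaled without the mitochondrially coded genes, the median differences were 0.19 in each list, in place of 0.31, 0.31 and 0.30. The cardiomyocyte marker sum given above moves with these lists, and its part was not tested. Called metabolic genes in related lists were Perm1, a muscle regulator of mitochondrial genes (-0.52 against 0.04), Dhrs7c, a dehydrogenase of the sarcoplasmic reticulum counted with calcium handling (-0.64 against 0.02), and the clock repressor Cry1 (-0.45 against 0.34). Each was the only called gene of its list, of 24, 27 and 19 measured, against 0.171% of all genes called higher. Their calls held in 2, 2 and 5 of the 12 fits with a library left out. Ogdhl, a form of 2-oxoglutarate dehydrogenase, Cdkn1c, a cell cycle inhibitor, Hopx, a cardiac homeodomain protein, and the water channel Aqp1 were also weaker falls and were chosen after their values were seen. Cdkn1c fell by 1.19 on the control diet and had a response of -0.23 without BCAA, and Aqp1 fell by 0.79 and had -0.02.

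mt-Atp8, a subunit of ATP synthase, was the mitochondrially coded protein gene called: 1144, 1203 and 1344 normalized reads in control sham, 629, 576 and 383 in control TAC, 950.4, 1206 and 1224 in BCAA-free sham, and 1008, 998 and 1087 in BCAA-free TAC. Its responses were -1.25 and -0.12. All mitochondrially coded genes together took 22.4% to 27.1% of reads in control sham and 17.9% to 19.9% in control TAC. The part of this share in the mt-Atp8 result was not tested. The coding sequence of mt-Atp8 overlaps that of mt-Atp6, and the transfer RNAs mt-Tf and mt-Tv, also called, border the ribosomal RNA genes. Reads of neighbours may therefore be counted with these genes, and their values are uncertain.

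Hmcn2, hemicentin-2 of the basement membrane, was the gene with opposite responses. It had 3102, 2139 and 2843 normalized reads in control sham, 1893, 2034 and 1475 in control TAC, 1916, 1659 and 1703 in BCAA-free sham, and 3032, 2559 and 3014 in BCAA-free TAC. TAC lay below sham on the control diet and above it on the BCAA-free diet, without overlap in either. It fell by 0.59 (adjusted p = 0.00756) and rose by 0.70 (adjusted p = 0.0251), a difference of 1.29 ± 0.199 (adjusted p = 0.0164), called in 10 of the 12 fits with a library left out.

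Kept responses are described here by the genes whose smaller response was largest. Itih4, a secreted member of the inter-alpha-trypsin inhibitor family, had 183, 161 and 168 normalized reads in control sham, 492, 426 and 484 in control TAC, 117, 163 and 124 in BCAA-free sham, and 303, 346 and 333 in BCAA-free TAC. It rose by 1.44 and 1.29, with a difference of -0.15 (95% interval -0.60 to 0.30). Tnfrsf12a, the TWEAK receptor, rose by 1.11 and 1.27 (difference 0.16, interval -0.26 to 0.57), and its BCAA-free TAC libraries, at 11679.8, 7461 and 8768, overlapped the control TAC libraries, at 9485, 10063 and 10080.2. Tpm2, beta-tropomyosin, rose by 0.83 and 0.71, Tagln, transgelin of smooth muscle, by 0.84 and 0.74, and Hspb6, a small heat shock protein, by 0.65 and 0.74. Pi16, a marker of a fibroblast subset, rose by 0.86 and 0.96, from a BCAA-free sham level that was lower (diet effect in sham -0.76, adjusted p = 0.0456). The 95% intervals of these differences lie within 0.6 of 0, which does not show that the rises were equal. The number of kept responses, 140, was 12 without BCAA-free TAC 1, 17 without BCAA-free TAC 3, 18 to 25 without any of the BCAA-free sham libraries, 68 without BCAA-free TAC 2, 91 without control sham 3 and 439 without control TAC 3.

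The 102 kept falls had median responses of -0.58 and -0.44. Ano10, a membrane scramblase family member, had 3975, 3540.1 and 4055 normalized reads in control sham, 2149, 1635 and 1868 in control TAC, 4176, 5232 and 5587 in BCAA-free sham, and 2087, 2481 and 2273 in BCAA-free TAC. It fell by 1.05 and by 1.13. Angpt1, the ligand of the endothelial receptor Tek, fell by 0.95 and by 0.91, Kif6, a kinesin, by 0.77 and by 0.79, and Alg10b, a glycosyltransferase of the endoplasmic reticulum, by 0.72 and by 0.72. Nr1d1, the clock repressor REV-ERB alpha (-0.66 and -0.62), Prkaa2, a catalytic subunit of AMP-activated kinase (-0.51 and -0.36), and Chrm2, the cardiac muscarinic receptor (-0.63 and -0.40), were also kept and were chosen after their values were seen. With the limit for kept set at 1 in place of 0.6, 202 genes were kept.

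**Figure D5:**
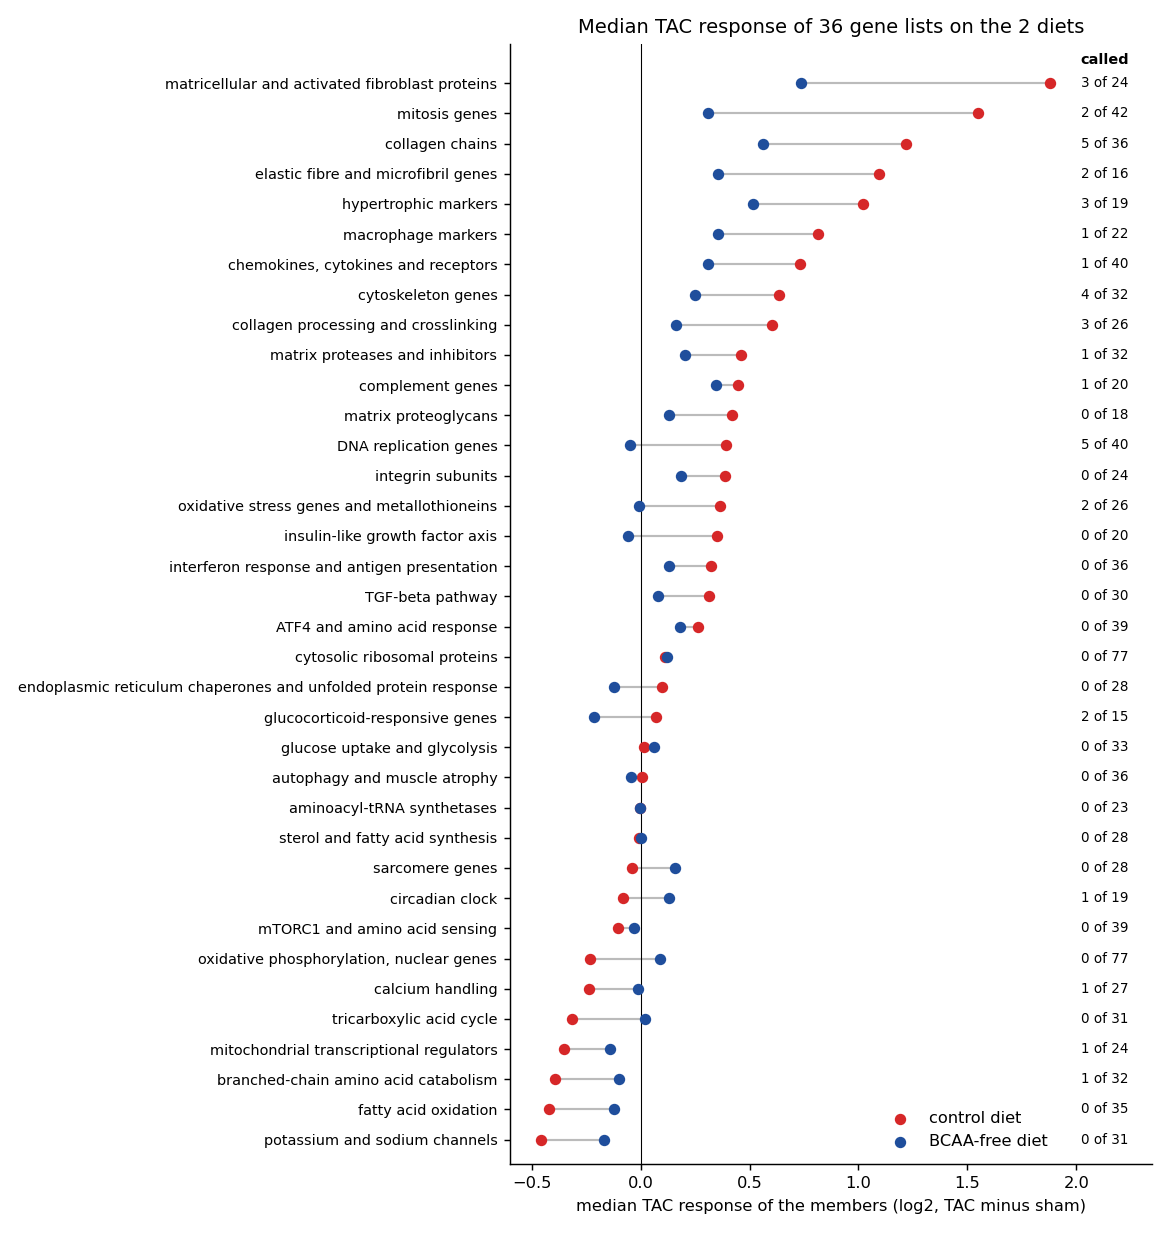
Median TAC response (x axis, log2) of the measured members of 36 gene lists on the control diet (red) and the BCAA-free diet (blue), with the number of members called for the difference on the right. The widest gaps are in mitosis genes (1.55 against 0.31) and matricellular genes (1.88 against 0.73), and the lists of aminoacyl-tRNA synthetases and ribosomal proteins have nearly the same median on both diets.

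Lists closest to amino acid supply had no called member. Limma called 0 of 39 genes of the ATF4 and amino acid response, 0 of 39 of mTORC1 and amino acid sensing, 0 of 23 aminoacyl-tRNA synthetases and 0 of 77 cytosolic ribosomal proteins. Over all genes tested limma called 0.675%. The counts at an unadjusted p under 0.05 were 10, 1, 0 and 1, against 14.7% of all genes. edgeR called 0 in each (0.806% of all genes), and DESeq2 called 2 in the first and 0 in the others (5.12%). With control TAC 3 left out, the counts were 3, 2, 0 and 0, against 10% of all genes in that fit. Their median differences were -0.17, 0.06, 0.03 and 0.00, and scaled without the mitochondrially coded genes they were -0.29, -0.06, -0.09 and -0.12, so 2 of these medians change sign with the scaling. Gdf15, a secreted stress cytokine of the ATF4 response, had 108, 114 and 93.6 normalized reads in control sham, 396, 675 and 402 in control TAC, 64.8, 57.6 and 97.0 in BCAA-free sham, and 131, 76.1 and 117 in BCAA-free TAC; it was not called (2.16 against 0.55, difference -1.61, adjusted p = 0.0624). Asns, asparagine synthetase, had a difference of -0.12 (interval -0.60 to 0.37) and was lower on the BCAA-free diet in both settings, with a diet effect of -0.74 in sham (adjusted p = 0.0471) and -0.85 in TAC hearts (adjusted p = 0.00166). Igfbp2, an insulin-like growth factor binding protein, had the largest BCAA-free response of the genes named, 4.60 against 3.47. It had 5.07, 12.4 and 8.82 normalized reads in BCAA-free sham and 321, 192 and 192 in BCAA-free TAC. Its difference of 1.13 was not called (interval -0.10 to 2.354). With array weights in limma it was 1.74 and called (adjusted p = 0.0355). edgeR and DESeq2 did not call it (adjusted p = 0.507 and 0.382).

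The 2 settings in which the diets can be compared were read side by side, each within the table that holds both diets. Diet in sham hearts was called for 171 genes (0.985%) and in TAC hearts for 4498 (25.9%), over 17354 genes. The sham count was 0 without BCAA-free sham 1, BCAA-free sham 2 or control sham 3, and 8 and 9 without BCAA-free sham 3 and control sham 1. It was 96 without BCAA-free TAC 3, 297 without control sham 2 and 908 without control TAC 3. The TAC count was 2712 without BCAA-free TAC 2. The 88 weaker rises had a median diet effect of -0.20 in sham and -1.22 in TAC hearts; 3 were called in sham (E2f1, Pcolce and Phlda3, chosen after their values were seen) and 88 in TAC. The 29 weaker falls had medians of 0.00 and 0.88, with 3 called in sham (Gm14327, A530016L24Rik and Cacna1s, likewise chosen) and 29 in TAC. The kept rises had medians of -0.24 and -0.35, and the kept falls of 0.22 and 0.33. These contrasts share libraries with the difference, so they show where the groups stand and are no separate evidence for it. Krt18 had a diet effect of -0.15 in sham and -2.89 in TAC hearts, and Tspo of -0.02 and -0.99.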

How the data were processed

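Members, gene lists and named genes were chosen with earlier results of these data known. Per the submitters' processing notes, Trimmomatic 0.36, STAR 2.5.2b, Subread 1.5.2 and DESeq2 were used with builds GRCm38 and mm10; the sources used here do not give their roles or settings. The deposited signal values are reads per gene that the authors divided by a size factor per library, separately within each of 4 tables, and each table pairs 2 groups. The authors' log2 fold changes and p-values in the deposited tables, per the file headers, were not used. Every one of the 431838 values was a whole multiple of 1 read (tolerance 0.001 reads), and the whole reads so recovered agreed wherever a library was in 2 tables (212169 values, 0 differing).

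For the difference, control-diet libraries came from the table of control TAC and sham, and BCAA-free libraries from that of BCAA-free TAC and sham. limma 3.58.1 (R 4.3.3; trend, robust) was fitted to log2(value + 1) with 4 group means and no covariate, over the 17493 genes in both tables; the mean minimum of 10 removed none. p-values are adjusted by Benjamini-Hochberg over all genes tested and called under 0.05. Diet effects came from a like fit to the tables of both sham and both TAC groups. edgeR 4.0.16 with TMM and DESeq2 1.42.0 on the recovered reads were alternatives, beside other pseudocounts and filters, no robust step, array weights, a scaling without mitochondrial genes, a replicate block, a looser threshold and each library left out. DESeq2 gave no adjusted p for 1703 genes. In simulated data with 50 changed genes per size (17459 genes run), the fit for the difference recovered 6%, 46%, 76% and 96% of differences of 0.5, 1, 2 and 3, with 3.45% false calls. The simulation gave all libraries the same spread for a gene, without a wider control TAC 3 or libraries high in structured RNA. These rates may therefore not hold for the real libraries.

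Same-numbered libraries of different groups were not paired by the labels, and their deviations from group means correlated between -0.292 and 0.182 over 18 pairs, with 2 over 0.1; the fit has no block. The rule for named genes took, at a mean of at least 50 and without predicted genes, pseudogenes and mitochondrial transfer RNAs, the 10 largest weaker rises, 6 weaker falls, the opposite responses, 6 kept rises and 4 kept falls, the 2 members with the smallest p of each list with a call, and 29 measured genes of remodelling and BCAA metabolism chosen from the same earlier knowledge. Others, including the remaining called members of lists and the genes called in all 12 fits, were named after their values were seen; 1 of the latter is not reported here. Positions are from GENCODE M21 (GRCm38). Jointly scaled reads used DESeq2 size factors over the 12 libraries.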

Additional observations from a re-analysis of the deposited data

Results flagged for a closer look

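The responses to TAC differed between the diets, by the test of the difference itself, for 118 genes. The values below are the log2 difference of each such gene that the text names under the naming rule, and their cause was not tested. Of the 118 genes, 14 kept the call in every fit with a library left out.

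Among secreted and matrix genes the difference was -2.99 in Cthrc1, -2.73 in Col8a2, -2.69 in Col9a2, -2.30 in Wisp1, -2.18 in Lox, -2.14 in Thbs4, -1.31 in Col16a1, -1.21 in Mfap5, -0.86 in Mmp23, -0.79 in Efemp2 and -0.76 in Pcolce. Among stress and cytoskeletal genes it was -3.28 in Sprr1a, -2.75 in Krt18, -1.27 in Uchl1 and -1.25 in Stmn1. In genes of replication and chromosome structure it was -1.12 in Mcm5, -0.66 in Mcm7, -0.93 in Smc2 and -0.70 in Smc4, and in the MYC antagonist Mxd3 it was -2.32. In the protease inhibitor Serpinb1a it was -2.58 and in Serinc2, a serine incorporator family member, -2.20. In genes of immune, antioxidant and steroid response it was -1.32 in Clu, -1.32 in Lgals3, -1.38 in Mt2, -1.02 in Gpx3 and -1.05 in Fkbp5.

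The difference was above 0 in the genes that fell on the control diet. It was 1.33 in Clcn1, 1.32 in Zfp454, 1.29 in Cxcl14, 1.27 in Lgi1, 1.14 in Lrrc15, 1.13 in mt-Atp8, 0.78 in Cry1, 0.66 in Dhrs7c, 0.55 in Perm1 and 0.53 in Bckdha. In Hmcn2, with responses of opposite sign, it was 1.29.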

How the results depend on the processing

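The 118 calls (30 higher, 88 lower), 117 weaker, 0 stronger, 1 opposite and 140 kept responses, 4436 control and 309 BCAA-free responses and the diet effects in sham (171) and TAC hearts (4498) depended on the processing as follows. With array weights 2053 genes were called (951 higher, 1102 lower), with 1947 weaker, 34 stronger, 14 opposite and 616 kept, 6754 control and 1380 BCAA-free responses, and 1239 and 7570 diet effects in sham and TAC hearts. DESeq2 called 809 (277 higher, 532 lower), with 776 weaker, 9 stronger, 3 opposite and 329 kept, and 817 BCAA-free responses. Scaled without mitochondrial genes, 287 were called (265 lower), with 284 weaker, 1 stronger and 0 opposite. With the replicate block 50 were called (12 higher, 38 lower), with 49 weaker and 48 kept, 131 BCAA-free responses and 36 diet effects in sham; the numbers did not pair the samples. At an adjusted p of 0.1, 473 were called (153 higher, 320 lower), with 466 weaker, 3 stronger and 260 kept, 609 BCAA-free responses and 534 diet effects in sham. Without the 4 libraries with the most structured RNA (chosen after seeing the data), 1116 were called (517 higher, 599 lower), with 1069 weaker, 2 stronger, 0 opposite and 2 kept, 20 BCAA-free responses and 1043 diet effects in sham. The causes of these shifts were not tested, beyond fewer libraries or a looser threshold where that is the alternative. With 1 library left out, calls ran from 16 to 1755 (higher 3 to 890, lower 11 to 865), weaker from 16 to 1681, stronger from 0 to 21, opposite from 0 to 10, kept from 12 to 439, control responses from 3371 to 5763, BCAA-free responses from 38 to 1011, and diet effects from 0 to 908 in sham and 2712 to 6344 in TAC. All 118 were also called by edgeR, DESeq2 and with array weights, 108 scaled without mitochondrial genes, 50 with the block, and 114 from the tables that pair the diets. The other pseudocounts, filters and edgeR stayed within 1.5 times of each of these counts.

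Differences near 0 that were not called changed sign. With array weights they were Pi16 -0.11, Angpt1 -0.041, Alg10b -0.0596 and Acta2 -0.14; Alg10b was -0.037 with DESeq2 and -0.048 with edgeR. Scaled without mitochondrial genes they were Pi16 -0.018, Hspb6 -0.032, Angpt1 -0.0800, Alg10b -0.12, Bcat2 -0.012, Klf15 -0.00062 and Acta2 -0.053. Without the 4 libraries they were Itih4 0.011, Tnfrsf12a -0.10, Pi16 -0.022, Tagln 0.29, Ano10 0.12, Kif6 0.11 and Alg10b -0.20. With 1 library left out they ran from -0.12 to 0.28 in Pi16, -0.066 to 0.18 in Angpt1, -0.064 to 0.34 in Klf15, -0.17 to 0.13 in Kif6, -0.20 to 0.18 in Alg10b, -0.12 to 0.31 in Acta2, -0.069 to 0.24 in Hspb6, -0.20 to 0.016 in Ano10, -0.00177 to 0.78 in Acta1, -0.78 to 0.017 in Myh7, -0.017 to 0.30 in Tnfrsf12a and -0.26 to 0.082 in Tagln. Depth was high in every library, and 3 libraries a group and their unequal spread limit what the difference can show.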

Other observations

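Some of the largest differences that were not called, chosen after their values were seen, are given here. C1qtnf3, a secreted C1q family member, had 20.4, 18.2 and 18.4 normalized reads in control sham, 670.0, 1133 and 114 in control TAC, 14.2, 23.1 and 15.1 in BCAA-free sham, and 28.1, 9.08 and 32.0 in BCAA-free TAC. Its difference was -4.24 (adjusted p = 0.0645), larger in size than that of any called gene, and control TAC 3 lay far below the other two libraries of its group. P4ha3, a subunit of prolyl 4-hydroxylase, had a difference of -3.57 (adjusted p = 0.0596), Ptn, the growth factor pleiotrophin, of -2.47 (adjusted p = 0.102), and Fmod, the collagen-binding proteoglycan fibromodulin, of -2.28. Ankle1, a nuclease, had a difference of -2.93 (adjusted p = 0.0748), Frem1, a basement membrane protein, of -2.90, Col11a1, a fibrillar collagen chain, of -2.82, and Tnnt3, the troponin T of fast skeletal muscle, of -2.08.

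On the higher side several of these differences were in short structured RNAs, beside genes such as Ccdc63, a coiled-coil gene, with 2.83 (adjusted p = 0.0658). Rmrp, the RNA of a mitochondrial RNA-processing ribonuclease, had 30.1, 1680.3 and 20.8 normalized reads in control sham, 32.5, 43.7 and 299 in control TAC, 55.7, 15.1 and 21.4 in BCAA-free sham, and 1032, 63.6 and 1023 in BCAA-free TAC. Its difference of 4.35 (adjusted p = 0.492) rested on the high values of single libraries. Rn7sk, Rpph1 and Rny1 had differences of 3.84, 3.77 and 4.38. The predicted genes Gm42418 and Gm23935 and the gene Lars2 had many more reads, with differences of 2.19, 2.12 and 2.06 that were not called. Gm42418 had 1827780 normalized reads in control sham 2, and 1216650 and 1135290 in BCAA-free TAC 1 and 3. The other libraries had 150016 to 494929. Cyp1a1, a target gene of the aryl hydrocarbon receptor, had responses of -2.51 and -0.29 and a difference of 2.22 (adjusted p = 0.11). Its normalized reads were 14.6, 40.6 and 29.6 in control sham and only 4.43, 3.05 and 4.18 in control TAC. On the BCAA-free diet they were 93.2, 191 and 130 in sham and 196, 116 and 55.4 in TAC. The gene was higher on that diet in both settings, with a diet effect of 2.30 in sham and 4.49 in TAC hearts.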
